A study of Mus musculus with 6 samples.

Results

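The microRNAs miR-199 and miR-214 were followed in the renal cortex of mice with diet-induced steatohepatitis, as 6 mature names out of the 1900 in the deposited tables of read counts. The members were taken by name: mmu-miR-199a-5p, mmu-miR-199a-3p, mmu-miR-199b-5p, mmu-miR-199b-3p, mmu-miR-214-5p and mmu-miR-214-3p, written below without the species prefix. Where a name was listed under several precursors, the largest count in each library was used. All 6 had counts in every library, and all 6 were among the 460 miRNAs that passed the filter on low counts.

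Small RNA was sequenced from 3 C57BL/6 mice fed an HF/HC/HS/BA diet, rich in fat and cholesterol and holding bile salt, with tofogliflozin for 8 weeks, and from 3 C57BL/6 mice fed that diet alone for 8 weeks. Both groups therefore received the steatohepatitis diet, and mice on a normal diet were not analysed here. Tofogliflozin inhibits SGLT2, the sodium-glucose cotransporter of the proximal tubule. The sources used here give neither the age nor the sex of the mice.

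A mature miRNA is cut from one arm of a hairpin, the 5p or the 3p arm, and pairs with target mRNAs mainly through its seed, bases 2 to 8 from the 5′ end. miR-199a and miR-214 are best known from mesenchymal cells, among them fibroblasts and pericytes, where a single long noncoding RNA, Dnm3os, carries a hairpin of each. In kidney, miR-214 and miR-199a have been studied as miRNAs raised in injured and fibrotic tissue, and Cav1 is an often cited target of miR-199a-5p. Tubule epithelium makes up most of the cortex and fibroblasts a small part of it. In whole-cortex RNA, a change in the number of fibroblasts and a change in the amount of a miRNA per fibroblast cannot be told apart.

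The mature sequences are shown because they decide which members are separate measurements. Lines give RefSeq sequences of build GRCm38.p6, 5′ to 3′, with the seed in capitals, and 5 of the 6 members had an entry.
miR-199a-5p: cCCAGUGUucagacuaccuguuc
miR-199a-3p: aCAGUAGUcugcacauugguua
miR-199b-3p: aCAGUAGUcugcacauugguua
miR-214-5p: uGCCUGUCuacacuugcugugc
miR-214-3p: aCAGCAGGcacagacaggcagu
The lines of miR-199a-3p and miR-199b-3p are the same, so their reads cannot be assigned to either gene. Seeds of the 5p and 3p arms of miR-199a, and of both arms of miR-214, differed from each other. Of the other names in the tables with a RefSeq mature entry, only miR-761 shared a seed with a member (CAGCAGG, that of miR-214-3p), and it had 0 counts in all 6 libraries, which allows at most 0.131 to 0.452 CPM, the count scaled by the total of its library, when 3 counts are taken as the limit.

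The hairpins lie at 4 places, each on the strand opposite to a dynamin gene. Mir199a-2 (chr1:162217814-162217923, plus strand, GRCm38, which is mm10) and Mir214 (chr1:162223368-162223477, plus strand) both lie within Dnm3os, 5445 bases apart, and inside introns of Dnm3 on the other strand. Of the annotated Dnm3os transcripts that span it, Mir199a-2 is in an exon of 2 of 3, and Mir214 is in an exon of 2 of 2. Mir199a-1 (chr9:21496495-21496564, minus strand) lies opposite introns of Dnm2, and its nearest annotated miRNA gene, Mir1946b, is 116880 bases away. Mir199b (chr2:32318460-32318569, plus strand) lies opposite introns of Dnm1, 117 bases from the annotated miRNA gene Gm23363. The hairpins are shown to place the arms, with the annotated mature arms in capitals.
Mir199a-2: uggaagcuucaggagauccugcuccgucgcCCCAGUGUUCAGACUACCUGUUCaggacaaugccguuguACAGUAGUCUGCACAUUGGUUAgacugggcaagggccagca
Mir199a-1: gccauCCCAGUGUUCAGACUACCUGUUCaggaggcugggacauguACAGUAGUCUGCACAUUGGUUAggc
Mir199b: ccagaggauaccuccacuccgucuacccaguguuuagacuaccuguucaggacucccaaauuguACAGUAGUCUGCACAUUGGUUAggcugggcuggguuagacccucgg
Mir214: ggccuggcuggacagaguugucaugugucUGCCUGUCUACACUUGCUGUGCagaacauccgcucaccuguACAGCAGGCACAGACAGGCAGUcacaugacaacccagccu
Both Mir199a hairpins hold the same 5p and 3p arms, so counts of miR-199a cannot be divided between the Dnm3os and Dnm2 loci. Laid without gaps along the Mir199b hairpin, the 23 bases of miR-199a-5p matched bases 26 to 48 with 1 mismatch, C10U, counted from the 5′ end of miR-199a-5p and so outside the seed. A single base thus separates the 5p arms of the 2 genes over this stretch.

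**Figure D1:**
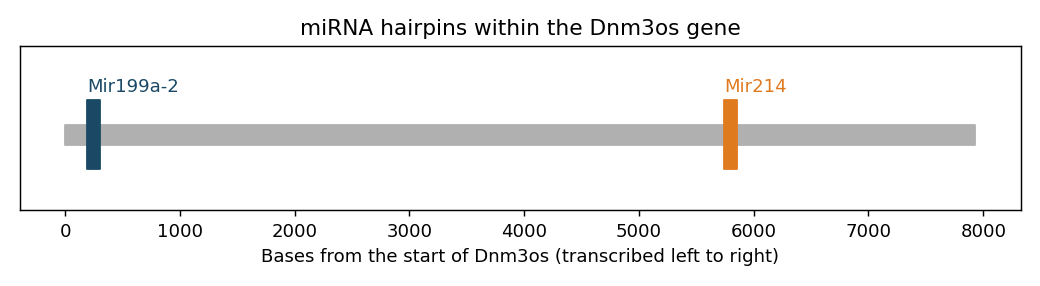
Map of Dnm3os, with distance from the start of the gene in bases on the horizontal axis. The grey bar is the gene and the coloured bars are the hairpins Mir199a-2 and Mir214, 5445 bases apart on the strand of Dnm3os.

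The deposited rows show how shared sequence was counted. miR-199a-3p was listed under both of its precursors with counts that differed by at most 1.39%, and miR-199b-3p differed from miR-199a-3p by at most 0.436% in any library. The 2 rows of miR-199a-5p differed by at most 3 counts. miR-199a-3p and miR-199b-3p are therefore 1 measurement given under 2 names, and the 6 names hold 5 measurements.

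Libraries held 8598518 to 29766679 counts over all rows, fewest in tofogliflozin replicate 2. That library also stood apart on the first principal component of log2 CPM (13.81, against -6.17 to 0.14 in the other 5), which held 52% of the variance. Results are therefore also given without it. The libraries come from separate mice. Intervals on shares of counts treat the reads of a library as independent, so they cover counting error only and not the spread between mice. The counts carry no molecular identifiers, so copies of the same molecule could not be told apart.

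The first question was how abundant the members were. miR-199a-3p led with a mean of 877 ± 195 CPM (SD, n = 6 libraries), rank 65 of the 1900 names, followed by miR-199a-5p at 233 ± 27 CPM (rank 109). Both arms of miR-214 were far lower, miR-214-5p at 22.1 ± 3.91 CPM (rank 204) and miR-214-3p at 13 ± 2 CPM (rank 226). miR-199b-5p, the only member of the Mir199b gene counted apart from miR-199a, was lowest at 4 ± 1.08 CPM (rank 307). In this order each member exceeded the next in 6 of 6 libraries. The ranges of miR-214-5p and miR-214-3p over the libraries overlapped, although within a library the 5p arm was 1.22 to 2.11 times the 3p arm (median 1.74). The ranges of the other neighbours did not overlap.

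As a sum of counts, with miR-199b-3p left out as a repeat of miR-199a-3p, the family summed to 1148, 850 and 1365 CPM in tofogliflozin replicates 1, 2 and 3, and to 1004, 1217 and 1309 CPM in diet-only replicates 1, 2 and 3. miR-199a-3p alone made up 64.9% to 80.2% of the sum. For scale, 9 tubule epithelial miRNAs summed to 86724 to 118882 CPM in tofogliflozin mice and 91277 to 101077 CPM in diet-only mice. The tables hold no mRNA, so fibroblast marker genes could not be examined, and the label fibroblast rests on background knowledge of these miRNAs.

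The 5p arms are the only part of miR-199 with separate counts for miR-199a and miR-199b. Reads named miR-199b-5p were 1.43%, 2.23% and 1.39% of all miR-199 5p reads in tofogliflozin replicates 1, 2 and 3, against 1.75%, 1.63% and 1.63% in diet-only replicates 1, 2 and 3. The 95% Wilson intervals ran from 1.06% to 3.03% over the tofogliflozin libraries and from 1.23% to 2.16% over the diet-only libraries. The highest share was in tofogliflozin replicate 2, on 1791 reads, and the groups overlapped. Since 1 base separates the names and the aligner is not given here, the share of miR-199b-5p reads that are misread or misassigned miR-199a-5p was not tested, and a share of mature reads is not the output of a gene. The log2 ratio of miR-199a-5p to miR-199b-5p averaged 5.87 ± 0.39 with tofogliflozin and 5.86 ± 0.057 on the diet alone (SD, n = 3 each). The difference of 0.012 was not distinguishable from 0 (2-sided exact permutation test, p = 1, adjusted p = 1 over 2 ratios). Without tofogliflozin replicate 2 it was 0.24 (exact permutation p = 0.1, the smallest that 2 against 3 mice allow). The remaining tofogliflozin mice had 6.07 and 6.13, against 5.79, 5.89 and 5.90 in the diet-only mice, which did not overlap. How often other ratios separate in so few mice was not examined, so this is a description only. Its sign was not stable. Dropping a different single mouse gave -0.089 (tofogliflozin replicate 1), -0.11 (tofogliflozin replicate 3), -0.021 (diet-only replicate 1), 0.027 (diet-only replicate 2) or 0.03 (diet-only replicate 3).

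The next question was whether tofogliflozin went with a different level of any member. None of the 6 passed an adjusted p of 0.05 in edgeR's quasi-likelihood test over all 460 miRNAs, in which 0 miRNAs (0%) were called. Unadjusted, 23 miRNAs (5%) and 0 of the 6 members had a p under 0.05. DESeq2 called 2 of the 460, neither of them a member. The median log2 fold change of the 460 miRNAs was -0.0052. An exact permutation test of 3 against 3 mice cannot go below 0.1.

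miR-199a-3p, which in other tissues is described as acting on mTOR and Met, stood at 877, 552 and 1095 CPM in tofogliflozin replicates 1, 2 and 3, against 764, 969 and 1003 CPM in diet-only replicates 1, 2 and 3. The lowest and the highest library were both from tofogliflozin mice, and the groups overlapped. Its log2 fold change, tofogliflozin minus diet only, was -0.16 ± 0.24 (SE), with a 95% interval of -0.71 to 0.39, or 0.613-fold to 1.31-fold (edgeR, adjusted p = 0.894; exact permutation p = 0.7). Without tofogliflozin replicate 2 the value was 0.069 (adjusted p = 0.941 by edgeR), so its sign rested on that library. The repeated entry miR-199b-3p gave -0.16 ± 0.24, and 0.07 without that library.

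miR-199a-5p, from the other arm of the same hairpins, stood at 235, 264 and 223 CPM in tofogliflozin replicates 1, 2 and 3, against 204, 208 and 266 CPM in diet-only replicates 1, 2 and 3. It was the steadiest member, with 1.31-fold between its lowest and highest library, where miR-199a-3p had 1.98-fold. The groups overlapped and the log2 fold change was 0.056 ± 0.15 (SE; interval -0.29 to 0.41; edgeR, adjusted p = 0.969), which was -0.015 without tofogliflozin replicate 2. Tofogliflozin replicate 2 was thus lowest in miR-199a-3p and close to the top in miR-199a-5p.

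miR-199b-5p was at 3.41, 6.02 and 3.13 CPM in tofogliflozin replicates 1, 2 and 3, against 3.63, 3.43 and 4.4 CPM in diet-only replicates 1, 2 and 3. These rest on 40 to 83 counts, and the highest value, in tofogliflozin replicate 2, rests on 40. The log2 fold change was 0.061 ± 0.32 (SE; interval -0.67 to 0.79; edgeR, adjusted p = 0.988). It was -0.26 without tofogliflozin replicate 2 and -0.055 with limma-voom.

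miR-214-3p, the arm first described as miR-214, was at 12.4, 12.9 and 16.9 CPM in tofogliflozin replicates 1, 2 and 3, against 11.3, 11.9 and 12.7 CPM in diet-only replicates 1, 2 and 3. Tofogliflozin replicate 3 was highest, and on this scale 1 diet-only mouse lay above 1 tofogliflozin mouse. On log2 CPM scaled by TMM (trimmed mean of M-values) the groups did not overlap (exact permutation p = 0.1). Groups did not overlap for 55 of the 460 miRNAs (12%), and beside that background 1 of 6 members is given as a description only. The log2 fold change was 0.20 ± 0.19 (SE; interval -0.23 to 0.63, or 0.851-fold to 1.55-fold; edgeR, adjusted p = 0.877). It was 0.25 without tofogliflozin replicate 2 and fell to 0.10 without tofogliflozin replicate 3.

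miR-214-5p was at 20.3, 15.8 and 26.9 CPM in tofogliflozin replicates 1, 2 and 3, against 21.3, 25.1 and 23.4 CPM in diet-only replicates 1, 2 and 3. As for miR-199a-3p, the lowest and the highest library were tofogliflozin replicates 2 and 3, and the diet-only mice lay between. The log2 fold change was -0.18 ± 0.22 (SE; interval -0.69 to 0.32; edgeR, adjusted p = 0.877), and -0.022 without tofogliflozin replicate 2.

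**Figure D2:**
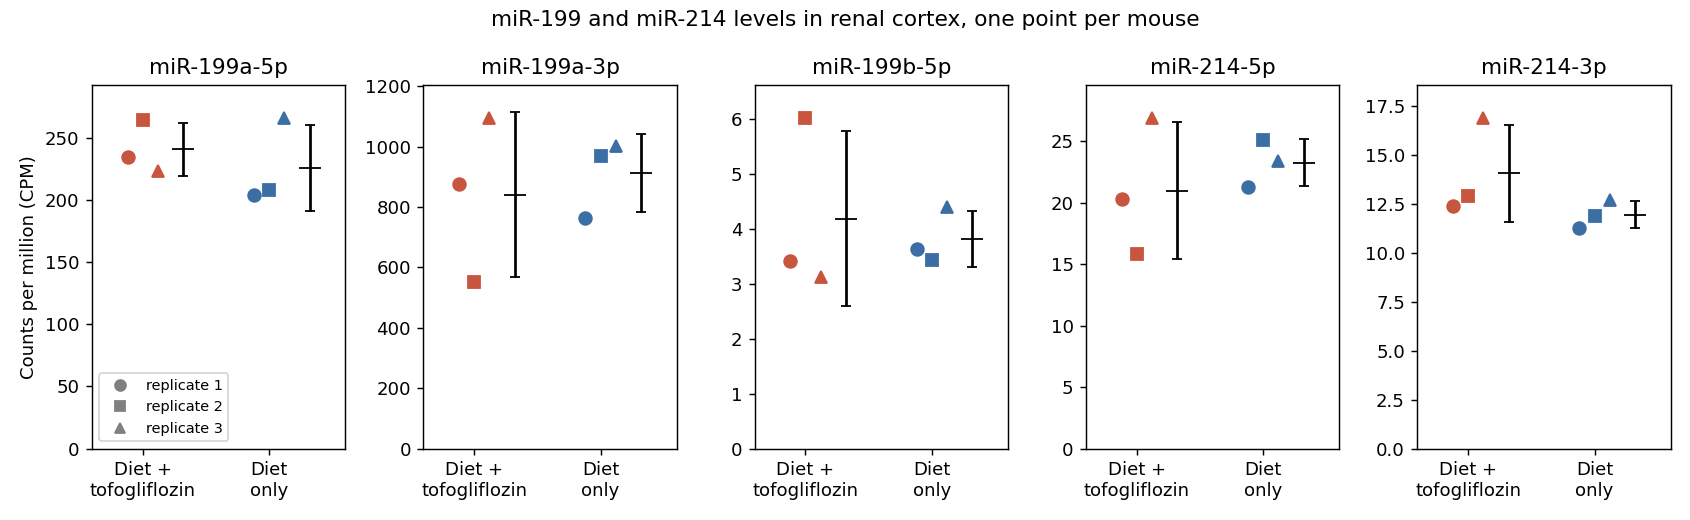
Levels of the 5 separate measurements in CPM, with tofogliflozin mice left of diet-only mice. Points are single mice, with replicate 1, 2 and 3 marked by shape, and bars are the mean and SD (n = 3 each). Tofogliflozin replicate 2 was lowest for miR-199a-3p (552 CPM) and miR-214-5p (15.8 CPM) and highest for miR-199b-5p (6.02 CPM).

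**Figure D3:**
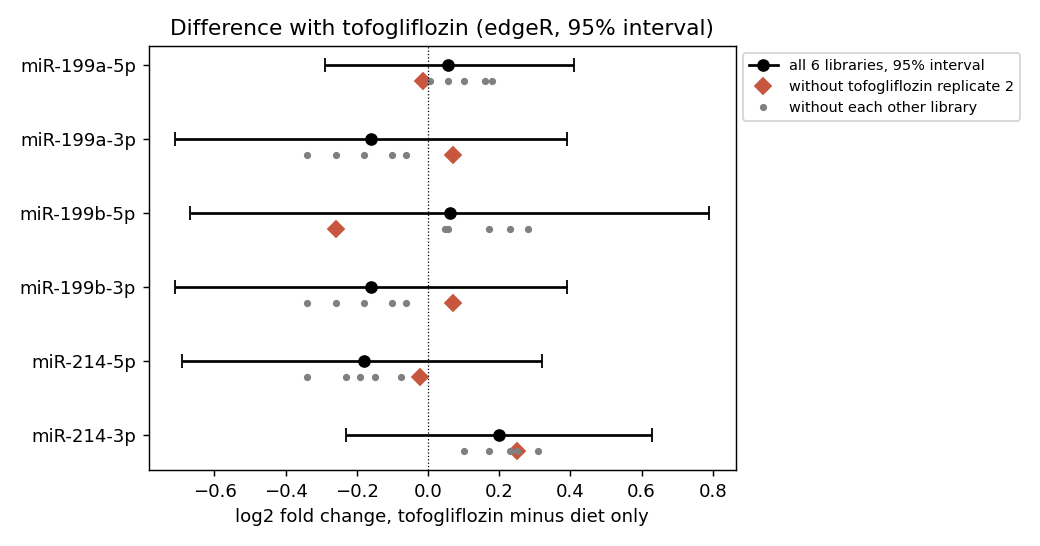
Log2 fold change of the 6 members, tofogliflozin minus diet only, with 95% intervals from edgeR (black) and the value with 1 library left out (small points). All 6 intervals include 0, and without tofogliflozin replicate 2 (diamonds) miR-199a-3p moved to 0.069 and miR-199b-5p to -0.26.

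The arms of a hairpin come from 1 transcript and were compared next within each library, which needs no scaling between libraries. For miR-214 the 5p arm outnumbered the 3p arm in 6 of 6 libraries. The 5p arm took 62.1%, 55% and 61.3% of miR-214 reads in tofogliflozin replicates 1, 2 and 3, against 65.3%, 67.8% and 64.8% in diet-only replicates 1, 2 and 3. Every tofogliflozin mouse was below every diet-only mouse. The 95% Wilson intervals, on 191 to 755 reads, ran from 47.9% to 66.4% over the tofogliflozin libraries and from 60.8% to 71.6% over the diet-only libraries, and so overlapped.

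The log2 ratio of 5p to 3p for miR-214 averaged 0.55 ± 0.23 with tofogliflozin and 0.95 ± 0.10 on the diet alone (SD, n = 3 each). The difference was -0.40 ± 0.24 (SE), with an interval of -0.95 to 0.15 (limma, p = 0.134, adjusted p = 0.918 over 74 hairpins; exact permutation p = 0.1, the smallest possible). No hairpin passed the threshold (0 of 74, 0%), and 1 (1.35%) had an unadjusted p under 0.05. Groups did not overlap in 4 of the 74 hairpins (5.41%), miR-214 among them. It ranked 5 of 74 by p. Without tofogliflozin replicate 2 the difference was -0.27 (adjusted p = 0.965), and it stayed below 0 with any other library left out.

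For miR-199a the 3p arm led in every library. Its 3p count also holds any reads of Mir199b, and both counts pool the Mir199a hairpins, so these shares are not the arm use of a single hairpin. The 5p arm took 21.1%, 32.3% and 16.9% of miR-199a reads in tofogliflozin replicates 1, 2 and 3, against 21.1%, 17.6% and 21% in diet-only replicates 1, 2 and 3. Tofogliflozin replicate 2 was highest and tofogliflozin replicate 3 lowest, so the tofogliflozin mice enclosed the diet-only mice. The log2 ratio differed by 0.26 ± 0.34 (SE; interval -0.51 to 1.03; limma, adjusted p = 0.918). Leaving out tofogliflozin replicate 2 gave -0.085, and leaving out tofogliflozin replicate 3 gave 0.53. The ratio for miR-199b, at 0.25 ± 0.46, sets miR-199b-5p against 3p reads shared with miR-199a and says nothing of the arms of Mir199b.

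Tofogliflozin replicate 2 had unusual arm ratios in many hairpins. Its log2 ratio lay a median of 0.59 from the median of the other libraries over the 74 hairpins, where the other 5 libraries had 0.18 to 0.31. It deviated by 0.85 in miR-199a, rank 24 of 74 by size, and by -0.59 in miR-214, rank 35. The part of this library in the arm ratio of miR-214 was not tested beyond leaving it out.

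**Figure D4:**
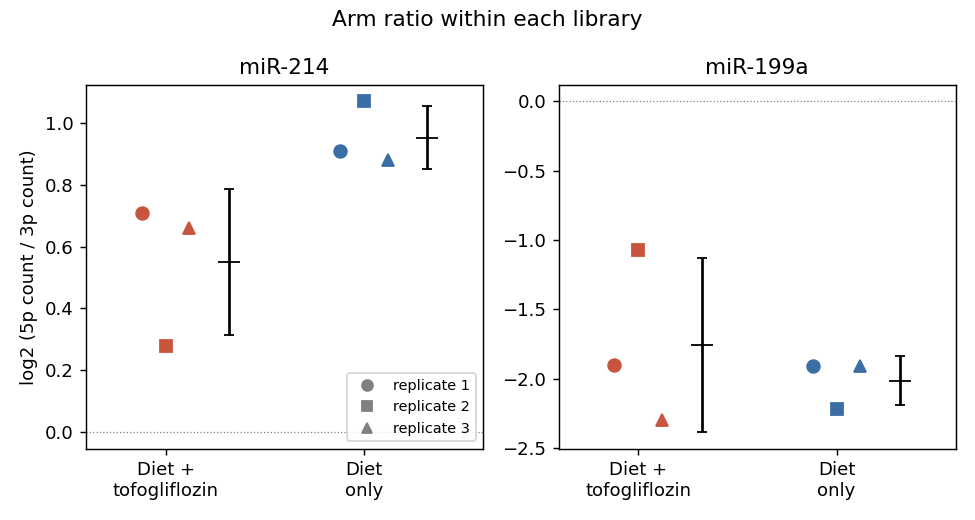
Log2 ratio of 5p to 3p counts for miR-214 and miR-199a, with tofogliflozin mice left of diet-only mice; points are single mice, and bars are the mean and SD (n = 3 each). For miR-214 all 3 tofogliflozin mice (0.28 to 0.71) lie below the 3 diet-only mice (0.88 to 1.07), while for miR-199a the groups overlap.

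Whether the members varied together was described across the 6 libraries. Only the arms of miR-214 come from a single hairpin. Counts of miR-199a pool the Dnm3os and Dnm2 loci, and those of miR-199a-3p also hold any reads of Mir199b. Of 10 pairs of members, miR-199a-3p and miR-214-5p were most alike in log2 CPM (Pearson r = 0.95, exact permutation p = 0.00972, adjusted p = 0.0972 over the pairs; Spearman rho = 0.89, exact permutation p = 0.0333, adjusted p = 0.333). The r was 0.93 without the 2 libraries farthest from the median and 0.78 without tofogliflozin replicate 2. It was not particular to the family, since the 5 most alike miRNAs outside it, named below, had a higher r with miR-199a-3p (0.963 to 0.998). miR-199a-5p and miR-199a-3p, cut from the same hairpins, had r = -0.37 (exact permutation p = 0.514; rho = -0.20, exact permutation p = 0.714). This r was 0.16 without the 2 libraries farthest from the median and 0.30 without tofogliflozin replicate 2. For miR-214-5p and miR-214-3p the values were r = 0.30 (exact permutation p = 0.486) and rho = -0.20 (exact permutation p = 0.714), and r was 0.84 without the 2 farthest libraries and 0.54 without tofogliflozin replicate 2. No pair passed the adjustment. CPM values of a library share its total, so such correlations are not free of depth and composition.

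The log2 ratio of miR-199a-5p to miR-214-3p was 4.23, 4.33 and 3.71 in tofogliflozin replicates 1, 2 and 3, against 4.16, 4.12 and 4.38 in diet-only replicates 1, 2 and 3. The groups overlapped, and the difference of -0.13 was within the spread of the mice (exact permutation p = 0.8, adjusted p = 1 over 2 ratios). It was -0.25 without tofogliflozin replicate 2 and 0.061 without tofogliflozin replicate 3.

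Among 454 tested miRNAs outside the family, the 5 most like miR-199a-3p over the 6 libraries by Pearson r of log2 CPM were miR-10b-3p (0.998), miR-802-5p (0.989), miR-99b-5p (0.968), miR-152-3p (0.965) and miR-33-5p (0.963). They are the extremes of many comparisons and carry no test. Without tofogliflozin replicate 2 the values ran from 0.829 for miR-33-5p to 0.996 for miR-10b-3p. miR-10b-3p, from a Hox cluster, was at 37.8, 23.8 and 46.6 CPM in tofogliflozin replicates 1, 2 and 3, against 34.2, 42.2 and 43.3 CPM in diet-only replicates 1, 2 and 3, the same order of libraries as miR-199a-3p. miR-152-3p was at 1775, 1502 and 2053 CPM with tofogliflozin, against 1653, 1820 and 1800 CPM on the diet alone. miR-99b-5p was the most abundant of them, with a mean of 6118 CPM. miR-802-5p and miR-33-5p had 1 and 3 counts in tofogliflozin replicate 2, at or under the 3-count limit, so their likeness rests on few reads.

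**Figure D5:**
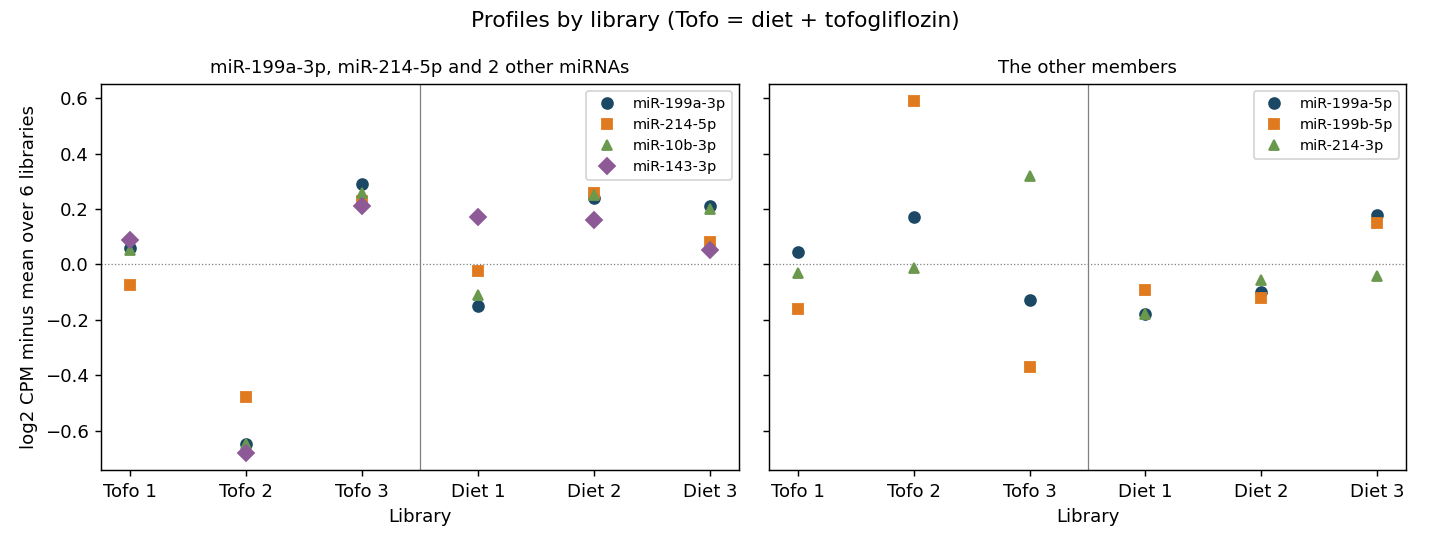
Log2 CPM minus the mean over the 6 libraries (vertical axis) by library (horizontal axis; Tofo is the diet with tofogliflozin and Diet the diet alone). miR-199a-3p, miR-214-5p, miR-10b-3p and miR-143-3p lie at -0.68 to -0.48 in tofogliflozin replicate 2, while miR-199a-5p (0.17), miR-199b-5p (0.59) and miR-214-3p (-0.011) do not.

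Markers of cells that a cortex sample could hold were set beside these profiles. The 6 smooth muscle and pericyte miRNAs, nearly all of it miR-143-3p, summed to 53436, 32440 and 61851 CPM in tofogliflozin replicates 1, 2 and 3, against 57206, 54780 and 53572 CPM in diet-only replicates 1, 2 and 3. The low value again fell on tofogliflozin replicate 2. miR-143-3p, a miRNA of contractile smooth muscle, was at 48462 ± 15098 CPM with tofogliflozin and 54427 ± 1851 CPM on the diet alone (SD, n = 3 each; edgeR, log2 fold change -0.21 ± 0.21 SE, adjusted p = 0.877). Its cluster partner miR-145a-5p was at 357, 427 and 334 CPM with tofogliflozin, against 314, 304 and 349 CPM on the diet alone, highest in the library where miR-143-3p was lowest. Over the 6 libraries miR-199a-3p had r = 0.88 with miR-143-3p and 0.91 with miR-145a-3p but -0.68 with miR-143-5p and -0.78 with miR-145a-5p, given as a description. Without tofogliflozin replicate 2 these were -0.01 for miR-143-3p, 0.39 for miR-145a-3p, -0.05 for miR-143-5p and -0.01 for miR-145a-5p, so the likeness to smooth muscle miRNAs rested on that library.

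Of the 5 tested smooth muscle and pericyte miRNAs, 2 were above 0 and 3 below, with a median log2 fold change of -0.016, and 0 passed the threshold. The 3 endothelial miRNAs had 1 above 0 and a median of -0.002, led by miR-126a-3p at 18362 ± 3248 CPM with tofogliflozin and 19765 ± 2307 CPM on the diet alone (SD, n = 3 each). The 6 leukocyte miRNAs were all below 0, with 0 past the threshold and a median of -0.20, or -0.54 when tofogliflozin replicate 2 was left out. miR-150-5p, a lymphocyte miRNA, was at -0.13 ± 0.18 (SE). Of 9 tubule epithelial miRNAs, 4 were above 0, 0 passed the threshold, and the median was -0.046. Values ran from -0.21 to 0.69, the highest being miR-204-5p (edgeR, unadjusted p = 0.00168, adjusted p = 0.387). It was the only 1 of the 9 with an unadjusted p under 0.05. miR-192-5p stood at 51271 ± 3890 CPM with tofogliflozin and 51655 ± 1813 CPM on the diet alone (SD, n = 3 each).

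Blood and liver miRNAs were not level across the libraries. The 4 erythroid miRNAs summed to 143, 227 and 88.4 CPM in tofogliflozin replicates 1, 2 and 3, against 46.3, 77.8 and 167 CPM in diet-only replicates 1, 2 and 3. miR-122-5p, a hepatocyte miRNA, was at 48.4, 248 and 48 CPM in tofogliflozin replicates 1, 2 and 3, against 78, 39 and 42.6 CPM in diet-only replicates 1, 2 and 3. The erythroid sum and miR-122-5p were both highest in tofogliflozin replicate 2. Most of the erythroid sum was miR-486-5p in every library. miR-451a, of the same list, was at 14.5, 11.4 and 8.06 CPM in tofogliflozin replicates 1, 2 and 3. In diet-only replicates 1, 2 and 3 it was at 3.5, 9.32 and 13.1 CPM, so its highest value was in tofogliflozin replicate 1. The part of blood and liver miRNAs in the values of the members was not tested.

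miRNAs described in kidney fibrosis were counted as a list, which is not a pathway and shares miR-192-5p with the tubule list. Fibrosis itself was not measured in these counts. Of 18 tested, 9 were above 0 and 9 below, 0 passed the threshold, and the median log2 fold change was -0.0069, against -0.0052 over all 460 miRNAs. Values ran from -0.79 to 0.65. let-7c-5p, which is described as targeting a TGF-β receptor, was at 45553 ± 2836 CPM with tofogliflozin and 45611 ± 4926 CPM on the diet alone (SD, n = 3 each; edgeR, log2 fold change -0.043 ± 0.12 SE, adjusted p = 0.969).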

How the data were processed

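For each library the authors deposited raw counts, in 2033 rows that pair a precursor with a mature miRNA. Per the submitters' processing notes, cutadapt 1.14 and build mm10 were used; aligner and counter: not given in the sources used here. For each of the 75 names with several rows the largest count per library was used, as the values show like counts under each precursor of miR-199a. CPM was scaled to the merged total.

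Tofogliflozin was compared with diet only by edgeR 4.0.16 (quasi-likelihood F-test, TMM, filterByExpr with a count of 10 and a total of 15, Benjamini-Hochberg adjustment, threshold 0.05) in R 4.3.3 over all 6 libraries. SE is the absolute log2 fold change over the square root of F. Arm ratios (limma 3.58.1, pseudocount 1) needed a mean of 50 counts in the lower arm. DESeq2 1.42.0, limma-voom, other scaling, filters and merging, a replicate block and each library left out were alternatives. Tests were tried on simulated data, with larger changes than those of the members and without an outlying library. Their power for differences as small as those of the members was not tested. Same-numbered mice did not pair (r = 0.0027, -0.14 and -0.17 between their deviations). Named were members, seed-sharing names, the 5 profiles most like miR-199a-3p, and up to 2 abundant miRNAs per list. Smooth muscle miRNAs beside miR-199a-3p, and miR-204-5p, were chosen after their values were seen. Members and lists were chosen with earlier results of these data known. Sequences and positions are from RefSeq and GENCODE M21, both of GRCm38.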

Additional observations from a re-analysis of the deposited data

How the results depend on the processing

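The 5 members other than miR-199b-5p kept their direction under other size factors, filters, merging of rows, DESeq2, limma-voom and the replicate block, and no member passed the threshold under any alternative run. miR-199b-5p turned to -0.055 with limma-voom. It had no value with the filter of 10 CPM. The number of miRNAs called was 0 of 460 in the main edgeR run, 10 of 1026 in edgeR with no low-count filter and 2 of 460 with DESeq2. With a library left out it was 0 throughout, and log2 fold changes ran from -0.015 to 0.18 for miR-199a-5p, -0.34 to 0.069 for miR-199a-3p, -0.26 to 0.28 for miR-199b-5p, -0.34 to 0.07 for miR-199b-3p, -0.34 to -0.022 for miR-214-5p and 0.10 to 0.31 for miR-214-3p. Each of the turns of sign among these came without tofogliflozin replicate 2. Arm differences ran from -0.085 to 0.53 for miR-199a, -0.33 to 0.65 for miR-199b and -0.48 to -0.27 for miR-214. The ratio of miR-199a-5p to miR-199b-5p ran from -0.11 to 0.24 (0.24 without tofogliflozin replicate 2) and that to miR-214-3p from -0.25 to 0.061. List medians ran from -0.061 to 0.11 for smooth muscle, -0.54 to -0.052 for leukocyte and -0.061 to 0.062 for tubule miRNAs. The erythroid median, over 2 tested miRNAs, was 0.51 in the main run and ran from 0.17 to 1.04. The hepatocyte list is miR-122-5p alone, with a log2 fold change of 1.07 in the main run and -0.18 to 1.50 with a library left out. The cause of these changes was not tested. With the replicate number as a block, which the data gave no ground for, the members ran from -0.21 to 0.19 and 0 miRNAs were called; the arm ratio of miR-214 was -0.40 with an adjusted p of 1. At the depth of tofogliflozin replicate 2 the lowest members rest on few reads (40 counts of miR-199b-5p, 86 of miR-214-3p). The part of counting error in their differences was not tested.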
